A study of Homo sapiens with 6 samples.

Results

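The genes described are the enzymes that make serine from a glycolytic intermediate and those that pass its carbon to folate. They were chosen by name as PHGDH, PSAT1, PSPH, SHMT1, SHMT2, MTHFD1, MTHFD2, MTHFD1L and ALDH1L2, and all 9 were rows of the deposited count table, which lists 33451 genes. The mRNA was from MDA-MB-453, a human line from breast cancer, and every library came from that line at day 5. The 3 libraries of the 25(OH)D group came from cells cultured with 100 nM of 25(OH)D, the main circulating vitamin D metabolite, and the 3 Control libraries came from cells given the alcohol solvent alone. The comparison asks how each enzyme's mRNA differed between these groups. The labels name no genetic difference between the groups. The study calls the replicates biological without saying how the cultures were set up. The p-values of single genes weigh the difference between the groups against the spread among libraries within each group. Whether that is the spread between separate cultures is not known.

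Cells build serine from 3-phosphoglycerate in successive steps catalysed by PHGDH, PSAT1 and PSPH. The hydroxymethyltransferases SHMT1 in the cytosol and SHMT2 in mitochondria then split serine into glycine and a carbon carried by tetrahydrofolate, which MTHFD2, MTHFD1L and ALDH1L2 oxidise or release in mitochondria and MTHFD1 handles in the cytosol. The carbon is used to make purines, thymidylate and methionine, and several of these genes are known targets of the amino acid response factor ATF4 and of MYC.

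The libraries held between 33268860 and 40928176 counts. Genes of the mitochondrial genome took 7.85% to 7.99% of the counts in Control and 8.89% to 9.24% in 25(OH)D, and leaving them out changed no call on a pathway enzyme. Markers of a luminal breast line were abundant, with KRT8 at 1636 to 1869 CPM (counts scaled to a common library size) and FOXA1 at 77.5 to 120 CPM over the 6 libraries. All 5 immune markers together stayed at or under 0.416 CPM. COL1A1 was the one fibroblast marker with more than 16 counts in any library, and the fibroblast list summed to 36.5 to 39.0 CPM in Control and 32.0 to 34.7 CPM in 25(OH)D with it, and to at most 0.598 CPM without it. Its part in the results was not tested.

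Of the 9 enzymes, 7 passed the low-count filter of edgeR, and 6 of these were called at an adjusted p under 0.05, against 33.8% of the 18183 genes tested. mRNA of 5 was lower in 25(OH)D (PHGDH, PSPH, SHMT2, MTHFD1L and MTHFD2), where 16.5% of all genes were called lower. SHMT1 alone was higher, against 17.3% of all genes. MTHFD1 was not called. In 6 of the 7, no 25(OH)D library overlapped the Control range, as in 45.7% of all genes. The median log2 fold change of the 7 was -0.78, beside -0.01 over all genes tested. PSAT1 and ALDH1L2 were almost without reads in both groups and were not tested.

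**Figure D1:**
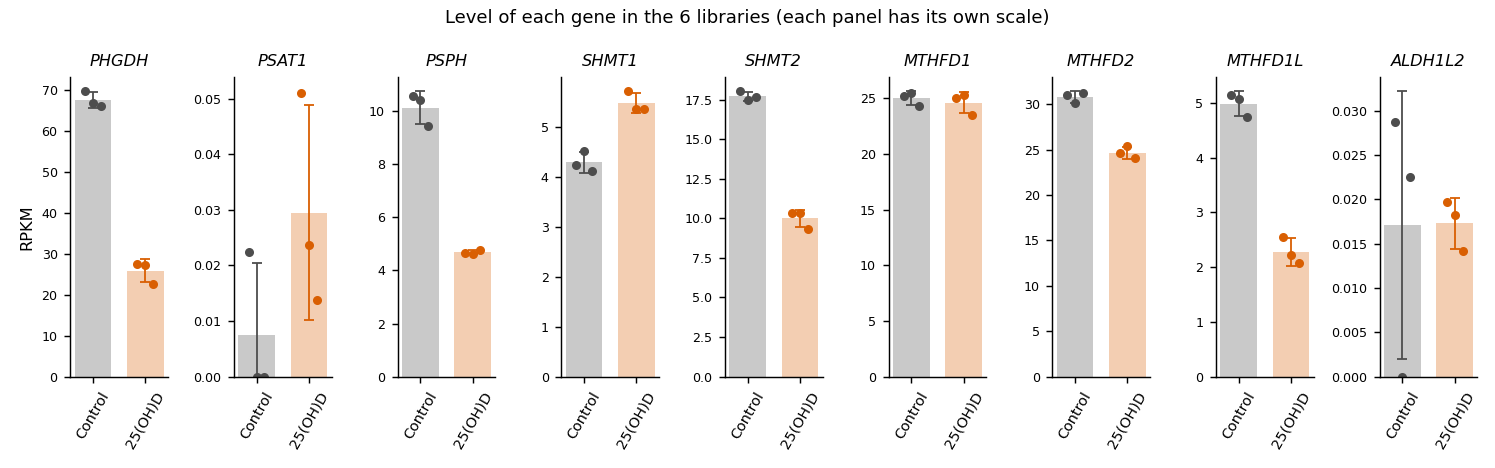
Level of each of the 9 genes in RPKM (reads scaled to gene length and library total, on the vertical axis, with a separate scale in each panel), with a point for each of the 3 libraries per group, bars at the mean and error bars of 1 SD. PHGDH, PSPH, SHMT2, MTHFD2 and MTHFD1L lie lower in 25(OH)D and SHMT1 higher, with no overlap of the points, while the panels of PSAT1 and ALDH1L2 span less than 0.06 RPKM.

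The first enzyme of serine synthesis, PHGDH (phosphoglycerate dehydrogenase; chromosome 1, 119659798 to 119744215, plus strand of GRCh38 in GENCODE 29, as for all positions below), was read at 385, 369 and 368 CPM in Control and at 158, 155 and 131 CPM in 25(OH)D. Every 25(OH)D library lay far below every Control library. The log2 fold change was -1.34 (SE 0.06 and adjusted p = 4.53e-10, edgeR quasi-likelihood test with Benjamini-Hochberg adjustment over all genes tested), which leaves 39.6% of the Control level. Of all genes tested, 1.49% had a lower log2 fold change.

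PSPH (phosphoserine phosphatase; chromosome 7, 56011051 to 56051604, minus strand) catalyses the last step, the release of serine from phosphoserine. It was read at 28.7, 28.3 and 25.8 CPM in Control and at 13.1, 12.9 and 13.5 CPM in 25(OH)D. The 25(OH)D libraries were close to each other and all below the lowest Control library. The log2 fold change was -1.07 (SE 0.07 and adjusted p = 4.59e-08, edgeR), a fall to 47.7% of the Control level. Its one named copy in the table, PSPHP1, held 2 counts in all.

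The step between these enzymes belongs to PSAT1 (phosphoserine aminotransferase; chromosome 9, 78297143 to 78330093, plus strand), whose counts were 2, 0 and 0 in Control and 4, 2 and 1 in 25(OH)D. These 9 counts in 6 libraries stand beside 16047 counts of PHGDH in a single Control library, and 23809 genes of the table had a larger summed count. A floor of 3 counts was worth 0.0733 to 0.0902 CPM before scaling in these libraries, so the groups lie at about the detection limit and no fold is given. Tested without the low-count filter, PSAT1 had an adjusted p of 0.576 (edgeR). RPKM of PSAT1 was at most 0.0510 in any library, while PHGDH and PSPH of the same pathway reached 69.7 and 10.6 RPKM. Summed over the 3 genes of serine synthesis, the level was 77.7 ± 2.4 RPKM in Control and 30.7 ± 2.7 RPKM in 25(OH)D (SD, n = 3). PHGDH alone made up 67.6 and 25.9 RPKM of these means, so the sum mostly repeats its difference.

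SHMT2 (chromosome 12, 57229327 to 57234935, plus strand), the mitochondrial hydroxymethyltransferase, was read at 85.7, 83.1 and 84.7 CPM in Control and at 50.9, 50.3 and 46.2 CPM in 25(OH)D. All 3 libraries of 25(OH)D were lower than any Control library. The log2 fold change was -0.78 (SE 0.05 and adjusted p = 3.49e-08, edgeR), or 58.2% of Control.

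Its cytosolic counterpart SHMT1 (chromosome 17, 18327860 to 18363563, minus strand) went the other way, with 30.3, 32.3 and 29.7 CPM in Control and 42.4, 39.4 and 39.7 CPM in 25(OH)D. Each 25(OH)D library exceeded the highest Control library. The log2 fold change was 0.40 (SE 0.06 and adjusted p = 1.67e-04, edgeR), a rise of 31.6%. In RPKM, SHMT1 was the lowest of the 7 tested enzymes in Control at 4.29 ± 0.21 (SD, n = 3), and at 5.47 ± 0.20 in 25(OH)D it stood above both PSPH and MTHFD1L.

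MTHFD2 (chromosome 2, 74198562 to 74217565, plus strand), the mitochondrial dehydrogenase and cyclohydrolase, was read at 148, 144 and 151 CPM in Control and at 122, 125 and 120 CPM in 25(OH)D. The groups did not overlap. The log2 fold change was -0.28 (SE 0.04 and adjusted p = 1.08e-04, edgeR), a level of 82.6% of Control, and 20.8% of all genes had a lower log2 fold change. Its paralog MTHFD2L, a member of the wider folate list, was read at 6.84, 6.48 and 4.51 CPM in Control and at 7.71, 7.23 and 7.95 CPM in 25(OH)D. The 25(OH)D libraries of MTHFD2L were the higher ones throughout, with a log2 difference of 0.36 (SE 0.15) that did not pass the test (adjusted p = 0.0764, edgeR).

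MTHFD1L (chromosome 6, 150865549 to 151101887, plus strand), the mitochondrial ligase that frees formate for export to the cytosol, was read at 25.4, 25.1 and 23.5 CPM in Control and at 13.1, 11.2 and 10.6 CPM in 25(OH)D. The highest 25(OH)D library was well below the lowest Control library. The log2 fold change was -1.09 (SE 0.09 and adjusted p = 2.42e-07, edgeR), which is 47.1% of Control and, after PHGDH, the lowest value among the enzymes tested.

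MTHFD1 (chromosome 14, 64388031 to 64463457, plus strand), the cytosolic enzyme that carries the dehydrogenase, cyclohydrolase and ligase activities in one protein, was read at 232, 235 and 226 CPM in Control and at 239, 239 and 225 CPM in 25(OH)D. The libraries of the groups overlapped. The log2 difference was 0.02 with a 95% interval of -0.06 to 0.11 (adjusted p = 0.724, edgeR), and its sign turned when the libraries were scaled by upper quartiles or by their totals.

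ALDH1L2 (chromosome 12, 105019784 to 105084577, minus strand), the mitochondrial formyltetrahydrofolate dehydrogenase, had 10, 0 and 7 counts in Control and 6, 6 and 4 counts in 25(OH)D. The sums were 17 and 16 counts, and a difference could not be seen at this depth (adjusted p = 0.984 without the low-count filter, edgeR).

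**Figure D2:**
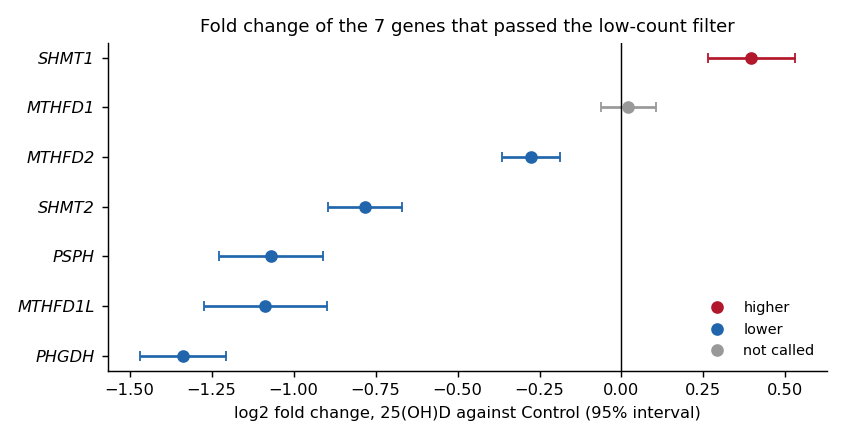
Log2 fold change of 25(OH)D against Control (horizontal axis) of the 7 enzymes that passed the low-count filter, with bars for the 95% interval of the edgeR quasi-likelihood fit. Points run from PHGDH at -1.34 to SHMT1 at 0.40, and the interval of MTHFD1 alone crosses 0.

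Per length, the order of the levels in Control was PHGDH (67.6 ± 1.9 RPKM, SD, n = 3), MTHFD2 (30.8 ± 0.62), MTHFD1 (25.0 ± 0.62), SHMT2 (17.7 ± 0.28), PSPH (10.1 ± 0.61), MTHFD1L (4.99 ± 0.22) and SHMT1, and none of these neighbours overlapped. In 25(OH)D, PHGDH (25.9 ± 2.8 RPKM), MTHFD2 (24.7 ± 0.65) and MTHFD1 (24.6 ± 0.97) had overlapping values, so the gap between PHGDH and the next enzymes was no longer beyond the spread. SHMT2 followed at 10.0 ± 0.56 RPKM, then SHMT1, PSPH at 4.69 ± 0.09 and MTHFD1L at 2.28 ± 0.25, each apart from its neighbour. PSAT1 and ALDH1L2 closed the order in both groups with overlapping values.

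The ratio of one enzyme to another within a library does not depend on how libraries are scaled. The SHMT2 to SHMT1 ratio of RPKM was 4.26, 3.87 and 4.29 in Control and 1.81, 1.92 and 1.75 in 25(OH)D. All 25(OH)D values were lower, and the log2 ratio differed by -1.18. For MTHFD1L to MTHFD1 the ratio was 0.205, 0.199 and 0.195 in Control and 0.102, 0.0875 and 0.0879 in 25(OH)D. Again no library overlapped, and the log2 ratio differed by -1.11. The RPKM of SHMT2, MTHFD2, MTHFD1L and ALDH1L2 summed to 53.5 ± 0.80 in Control and 37.0 ± 1.3 in 25(OH)D (SD, n = 3), while the cytosolic SHMT1 and MTHFD1 summed to 29.3 ± 0.81 and 30.1 ± 1.1 RPKM. The ratio of the mitochondrial to the cytosolic sum was 1.84, 1.75 and 1.89 in Control and 1.22, 1.24 and 1.23 in 25(OH)D, a log2 difference of -0.57. Every Control library thus held a larger mitochondrial share of these mRNAs than every 25(OH)D library.

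The MTHFD2 to MTHFD2L ratio was 43.7, 44.9 and 67.5 in Control and 31.9, 34.7 and 30.3 in 25(OH)D. Control replicate 3 was far above the others of its group, and the log2 difference of -0.66 became -0.46 without it. The PSPH to PHGDH ratio was 0.152, 0.156 and 0.143 in Control and 0.168, 0.169 and 0.210 in 25(OH)D. Its log2 difference of 0.28 fell to 0.17 without 25(OH)D replicate 3, whose value was the highest. All 5 ratios separated the groups, with a two-sided exact permutation p of 0.1 and an adjusted p of 0.1 over the 5, which is the smallest value that 3 libraries against 3 allow. Single genes did so in 45.7% of all genes tested. The ratios are built from the levels given above and share genes, so they are not separate from those results.

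**Figure D3:**
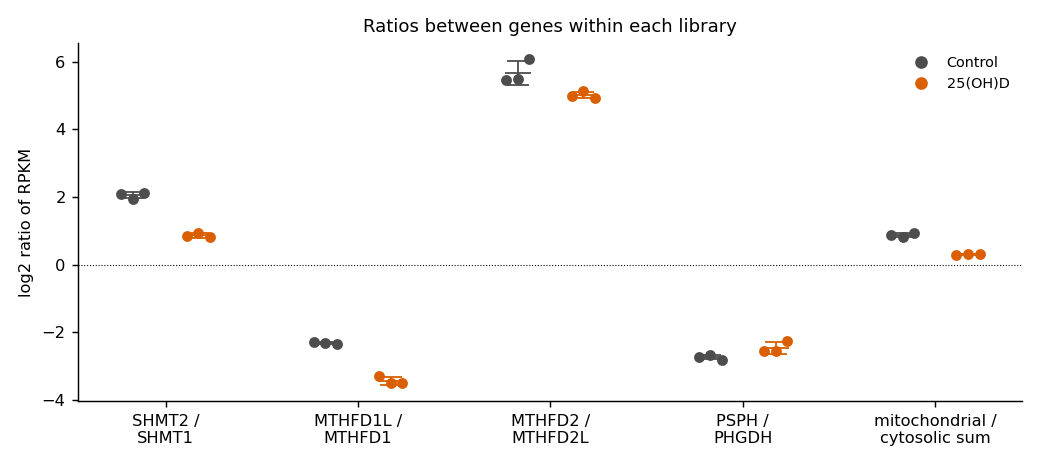
Log2 ratio of RPKM between pairs of enzymes, and between the summed mitochondrial and cytosolic folate enzymes, in each library (points), with the mean and an error bar of 1 SD per group (n = 3). The ratios SHMT2 to SHMT1, MTHFD1L to MTHFD1, MTHFD2 to MTHFD2L and mitochondrial to cytosolic lie lower in 25(OH)D, and PSPH to PHGDH lies higher.

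Other rows of the table share exon bases with 5 of the enzymes. There were 9 such rows, and all 9 are on the opposite strand. The library kit keeps strand, but the strand setting of the counting was not given, so reads of such a pair cannot be told apart with certainty. Beside SHMT2, the antisense gene RP11-123K3.9 shares 427 bases, which is 8.83% of the SHMT2 exon length, and was counted at 22.4% to 25.5% of the SHMT2 count in every library. It fell with SHMT2 (log2 fold change -0.67, SE 0.07 and adjusted p = 7.77e-06, edgeR). NDUFA4L2, known as a mitochondrial protein induced in hypoxia, shares 33 bases with SHMT2 and fell by 1.48 on the log2 scale (SE 0.16 and adjusted p = 6.39e-06, edgeR).

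Beside MTHFD2, RP11-287D1.3 shares 295 bases and was counted at 39.3% to 40.9% of the MTHFD2 count in all libraries, with nearly the same log2 fold change as MTHFD2 (-0.27, SE 0.05 and adjusted p = 8.42e-04, edgeR). SLC4A5, a bicarbonate transporter, covers 1324 bases or 27.2% of the MTHFD2 exons with only 143 to 183 counts, and its log2 difference of 0.13 did not pass the test. SMCR8, which shares 196 bases with SHMT1, had a log2 difference of -0.0011 (SE 0.04 and adjusted p = 0.989, edgeR). ZBTB25, CTD-2555O16.2 and CTD-2555O16.4 share 178, 101 and 756 bases with MTHFD1, and none of them was called. C12orf45 shares 145 bases with ALDH1L2 and held at least 292 counts in every library, where ALDH1L2 had at most 10. PHGDH, PSAT1, PSPH and MTHFD1L share no exon base with another row. Named copies took few reads, with 16 counts for MTHFD1P1 and 2 each for MTHFD2P5, MTHFD2P6 and MTHFD2P7.

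Around the pathway, 6 lists of genes by role held 76 further tested genes, and 13 of them were higher and 19 lower. Of all genes tested, 17.3% were called higher and 16.5% lower, and each list count below stands beside these shares. Counts near them, such as 2 of 12 higher (16.7%) among genes that use serine or glycine, do not set a list apart. Among the other folate enzymes and folate carriers, 3 of 13 were lower (23.1%) and none was higher at an adjusted p under 0.05 by edgeR, nor by DESeq2 or limma-voom, while MTHFD2L was among those higher at an unadjusted p under 0.05. The median log2 fold change was -0.12. SLC19A1, the reduced folate carrier of the cell membrane, was read at 7.64, 8.06 and 8.04 CPM in Control and at 5.18, 5.70 and 5.95 CPM in 25(OH)D. Its libraries did not overlap between the groups (log2 fold change -0.50, SE 0.11 and adjusted p = 3.11e-03, edgeR). The other 2 were named after their values were seen. They are SLC25A32, the mitochondrial folate carrier (-0.23, SE 0.08), and GART, an enzyme of purine synthesis that uses formyl folate (-0.14, SE 0.04). The count of higher folate genes was 1 without Control replicate 1, without Control replicate 3 or without the low-count filter. The count of lower folate genes was 2 with any library left out and 6 with libraries scaled by upper quartiles or totals. TYMS, which makes thymidylate with a folate carbon, had a log2 difference of -0.13 (SE 0.05) that was not called (adjusted p = 0.0830, edgeR).

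In the methionine cycle, where a folate carbon regenerates methionine, 4 of 10 tested genes were higher (40.0%) and 1 was lower, with a median log2 fold change of 0.21. MAT2A, which makes S-adenosylmethionine, was read at 218, 229 and 231 CPM in Control and at 494, 521 and 494 CPM in 25(OH)D. All 25(OH)D libraries were far above all Control libraries (log2 fold change 1.15, SE 0.04 and adjusted p = 1.98e-11, edgeR). The others that were higher, named after their values were seen, were AHCY, the hydrolase of S-adenosylhomocysteine (0.32, SE 0.05), and the related genes AHCYL1 (0.32, SE 0.04) and AHCYL2 (0.50, SE 0.10). MTRR, which keeps methionine synthase active, was the lower one (-0.22, SE 0.08 and adjusted p = 0.0464, edgeR) and was called under 6 of 18 alternatives. Methionine synthase itself, MTR, had a log2 difference of -0.02 (SE 0.04 and adjusted p = 0.686, edgeR).

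Among genes that use serine or glycine, 2 of 12 were higher and 1 was lower, and the median log2 fold change was 0.02. PTDSS1, which puts serine into phosphatidylserine, rose by 0.46 on the log2 scale (SE 0.05 and adjusted p = 2.95e-06, edgeR). SPTLC2, a subunit of the enzyme that joins serine to palmitoyl-CoA in sphingolipid synthesis, fell by 0.18 on the log2 scale (SE 0.04 and adjusted p = 2.86e-03, edgeR). DLD, the lipoamide dehydrogenase shared by the glycine cleavage system, was the other higher gene (0.23, SE 0.05). GLDC, the glycine decarboxylase of that system, had too few reads to be tested. The number of lower genes in this list was 2 without Control replicate 3, with upper-quartile factors, with library totals or on log2(RPKM + 0.1), and 3 on log2(RPKM + 1). On log2(RPKM + 0.1) 1 gene was higher.

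The list of serine carriers and of glycolytic enzymes around 3-phosphoglycerate had 5 of 12 higher (41.7%) and none lower by edgeR, DESeq2 or limma-voom (1, SLC38A2, at an unadjusted p under 0.05), with a median log2 fold change of 0.10. PKM, the pyruvate kinase downstream of the branch to serine, was read at 475, 451 and 482 CPM in Control and at 652, 663 and 651 CPM in 25(OH)D. The groups were well apart (log2 fold change 0.48, SE 0.04 and adjusted p = 1.17e-07, edgeR). SFXN3, a serine carrier of the mitochondrial membrane (0.39, SE 0.07), PGK1, which makes 3-phosphoglycerate (0.17, SE 0.04), and the neutral amino acid carriers SLC1A4 (0.22, SE 0.06) and SLC1A5 (0.17, SE 0.04) were the others, named after their values were seen. SFXN1, the main mitochondrial serine carrier, had a log2 difference of -0.14 (SE 0.08 and adjusted p = 0.188, edgeR). With upper-quartile factors, with library totals, without Control replicate 3 or without 25(OH)D replicate 3, 1 gene of this list was lower. On log2(RPKM + 1) the number of higher genes in this list was 3, and on log2(RPKM + 0.1) it was 2.

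Of 16 tested regulators known for these pathways, 6 were lower (37.5%) and 2 were higher, and the median was -0.03. ATF4, which activates serine synthesis genes when amino acids are short, was read at 387, 394 and 429 CPM in Control and at 249, 232 and 241 CPM in 25(OH)D. All libraries of 25(OH)D lay below those of Control (log2 fold change -0.75, SE 0.05 and adjusted p = 1.14e-08, edgeR). MYC was read at 27.5 to 29.4 CPM in Control and at 10.1 to 12.7 CPM in 25(OH)D, again without overlap (-1.35, SE 0.09). The same direction was called for TRIB3 (-0.75, SE 0.06), CEBPG (-0.58, SE 0.06), DDIT3 (-0.81, SE 0.10) and ATF3 (-0.36, SE 0.13), all known in the amino acid or stress response, and these and MYC were named after their values were seen.

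EIF2AK4, the kinase GCN2 that senses uncharged tRNA, was higher (0.49, SE 0.04 and adjusted p = 2.71e-07, edgeR). CEBPB was also called higher (0.78, SE 0.25 and adjusted p = 0.0262, edgeR), but at 19.1, 13.9 and 7.93 CPM in Control and 17.3, 21.2 and 32.2 CPM in 25(OH)D its groups overlapped. The number of higher regulators was 1 without Control replicate 2, without Control replicate 3 or without 25(OH)D replicate 3. NFE2L2, KEAP1, EHMT2 and KDM4C were not called.

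Among 13 other amino acid response genes known as ATF4 targets, 8 were lower (61.5%) and none was higher by edgeR, DESeq2 or limma-voom, nor at an unadjusted p under 0.05 by edgeR, with a median log2 fold change of -0.52. SLC7A11, the cystine carrier, was read at 74.5, 72.8 and 74.9 CPM in Control and at 18.0, 16.5 and 17.6 CPM in 25(OH)D. No member of any list had a lower log2 fold change than SLC7A11 (-2.09, SE 0.06 and adjusted p = 2.13e-12, edgeR). STC2, SLC7A1, ASNS, NUPR1, SLC3A2, SESN2 and CHAC1 were lower as well, with log2 fold changes between -1.82 and -0.49. DDIT4, SLC7A5, ALDH18A1, PYCR1 and VLDLR were not called. Under each alternative, 8 or 9 of these genes were lower.

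**Figure D4:**
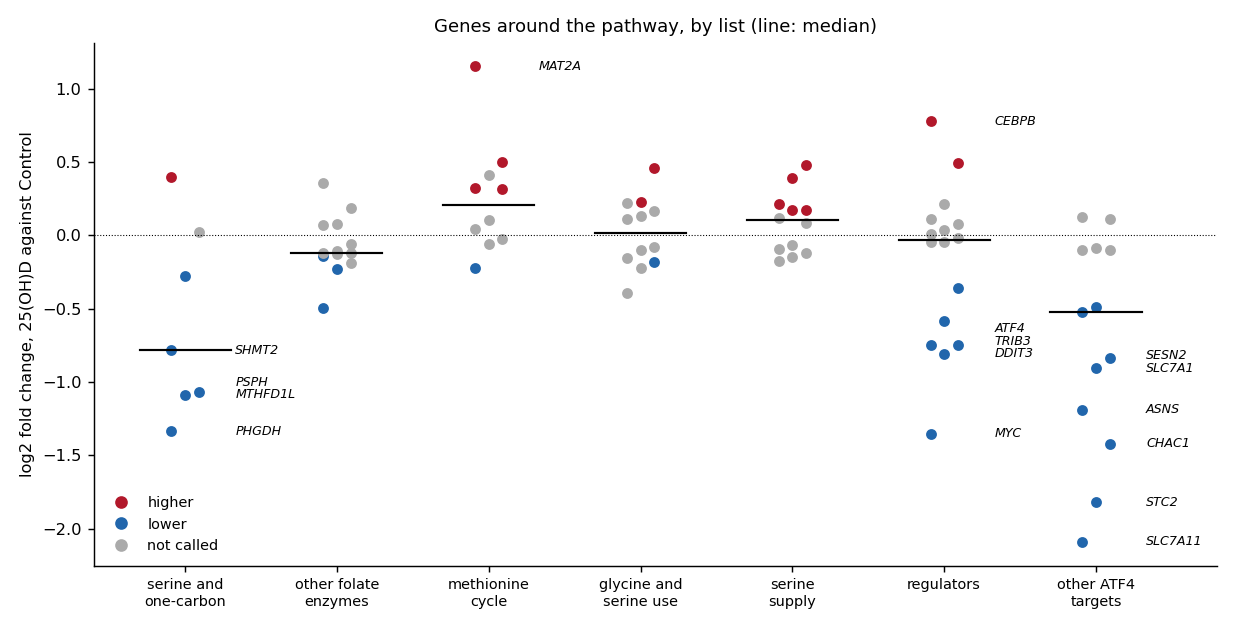
Log2 fold change of 25(OH)D against Control (vertical axis) of each tested gene in the pathway and in 6 lists around it, with called genes in red (higher) or blue (lower), other genes in grey and a line at the median of each list. The medians are -0.78 for the serine and one-carbon enzymes and -0.52 for the other ATF4 targets, and they lie between -0.12 and 0.21 for the other lists.

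RefSeq promoter windows (GRCh38.p14, 300 bases that reach to both sides of a start site) were at hand for 6 of the 9 enzymes (PHGDH, PSAT1, SHMT1, MTHFD1, MTHFD2 and MTHFD1L). The motifs searched, on both strands, were the E-box CACGTG that MYC and its relatives bind and the ATF4 element TGATGNAA. For the vitamin D receptor, only an exact direct repeat of AGGTCA with 3 bases between was searched. MTHFD1L has 4 windows, some of them overlapping, and each of the others has 1, so MTHFD1L had more places for a match. The E-box was found in MTHFD1L and MTHFD1. In the whole table it was in 7.26% of the 35116 windows and in at least 1 window of 8.77% of genes. Among the 6 enzymes MTHFD1L alone held the ATF4 element, which was in 3.62% of all windows and in 4.46% of genes. The exact AGGTCA repeat was in none of the 6. It was in only 2 windows of the whole table, so its absence here says nothing about binding of the vitamin D receptor. A match says only that the letters are there. In the lists of regulators and other ATF4 targets, the E-box was also found in ATF4, which was lower. It was found as well in EHMT2, KDM4C, ALDH18A1 and SLC7A5, which were not called. The E-box stretches of MTHFD1L and MTHFD1 are shown with the motif in capitals. Whether the E-box has a part in the levels of any of these genes was not tested.
MTHFD1L, chr6:150866326-150866343, plus strand: cggctcCACGTGcgcagc
MTHFD1, chr14:64388332-64388349, plus strand: cctaagCACGTGggttgg

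The ATF4 element of MTHFD1L lies 19 bases after the end of its E-box and has the same 8 letters as those of CHAC1 and CEBPG. Among tested genes with a window but no element, 2 of 6 other ATF4 targets, 3 of 12 regulators and 2 of 4 enzymes were lower. Among those with the element, 4 of 4, 2 of 2 and 1 of 1 were lower. Of all genes tested, 16.5% were called lower, and the share among all genes with the element was not counted. The lists were chosen for known ties to ATF4 or to these pathways, so these few counts cannot set the element apart. Whether the element has a part in any of these differences was not tested. The element of ASNS, the asparagine synthetase, is shown beside them. Each stretch is written on the strand on which the element reads as searched, in capitals.
MTHFD1L, chr6:150866351-150866370, plus strand: cggctcTGATGCAAtcgcgc
CHAC1, chr15:40953256-40953275, minus strand: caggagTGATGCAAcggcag
CEBPG, chr19:33374065-33374084, plus strand: ggcgtcTGATGCAAcctgcc
ASNS, chr7:97872463-97872482, minus strand: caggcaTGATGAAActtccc

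Genes whose profile over the 6 libraries was nearest to each enzyme were found by the root mean square difference of centred log2 CPM, among genes with at least 100 counts on average. PHGDH was nearest to STK32B (0.033) and ITPRIPL2 (0.048), PSPH to PLK2 (0.046) and C4orf19 (0.060), and MTHFD1L to PFKFB3 (0.080) and ADAMTS1 (0.080). SHMT2 lay nearest to TRIB3 (0.027), one of the regulators above, and to GATA3 (0.032), a luminal transcription factor. MTHFD2 was nearest to HNRNPF (0.013) and CDKN1B (0.015), MTHFD1 to EMC1 (0.012), and SHMT1 to BRINP3 (0.023) and TRIM73 (0.026). With 6 libraries in 2 groups, such a likeness mostly repeats the difference between the groups. In bulk RNA, fewer cells expressing a gene and less of its mRNA per cell cannot be told apart.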

How the data were processed

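The authors deposited a count table (reads per gene, not normalized) and RPKM values, each equal to the count divided by gene length and library total. Per the labels, the genome was GRCh38, and the submitters' processing notes name Trimmomatic 0.36, featureCounts, Subread 1.5.1 and edgeR 3.12.1. The aligner and annotation release are not given in the sources used here, though the 9 gene lengths equal those of GENCODE 29. Libraries of 33268860 to 40928176 counts were grouped by their labels, and none duplicated another.

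Counts were tested in edgeR 4.0.16 (R 4.3.3) with TMM scaling, its default low-count filter and the quasi-likelihood test without covariates, adjusted by Benjamini-Hochberg over 18183 genes (biological coefficient of variation 0.0788). Ratios of RPKM were compared by exact permutation. The planned PSAT1 to PHGDH ratio was left out, since PSAT1 had 0 counts in 2 libraries. Alternatives used DESeq2 1.42.0, limma 3.58.1, other scalings, filters and pseudocounts, the replicate block and omission of each library. Remaining steps used Python 3.11.15, numpy 2.4.6, pandas 2.3.3, scipy 1.17.1 and matplotlib 3.10.9.

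The enzymes, lists and rule were chosen with earlier results of these data known. The rule named the 9 enzymes, the called gene with the smallest p per list and direction, the 2 genes nearest in profile to each enzyme, and copies or rows sharing exons. Other list genes, and the list genes whose promoter stretches are shown, were named after their values were seen. A few items covered by the rule or the lists are not reported here.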

Additional observations from a re-analysis of the deposited data

How the results depend on the processing

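The calls on the 7 tested enzymes, 5 lower, 1 higher and 1 not called, were the same under all 18 alternatives, apart from the sign of MTHFD1, which was not called in any. MTHFD1 had a log2 difference of -0.020 (adjusted p = 0.748) with upper-quartile factors, -0.023 (0.709) with library totals, -0.022 (0.755) on log2(RPKM + 1) and -0.023 (0.789) on log2(RPKM + 0.1), the last 2 by limma. With a library left out, the log2 fold change was -1.38 to -1.24 for PHGDH, -1.11 to -1.03 for PSPH, -0.80 to -0.73 for SHMT2, -1.17 to -1.01 for MTHFD1L, -0.29 to -0.25 for MTHFD2, 0.37 to 0.44 for SHMT1 and 0.01 to 0.06 for MTHFD1. Over the 6 lists, 8 genes were higher on log2(RPKM + 0.1) instead of 13. The groups share replicate numbers, and deviations of same-numbered libraries correlated at -0.072, -0.012 and -0.046, beside -0.016 to 0.063 for libraries of different numbers. No pairing by number was seen, but with 3 libraries a group such a check cannot exclude one. With the replicate block 5 enzymes were lower and 1 higher, as without it, beside 13 higher and 17 lower list genes. Depth limits PSAT1 and ALDH1L2, for which no difference could be seen. With 3 libraries a group, the ratios cannot reach a p under 0.1.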
